A study of Ovis aries with 18 samples.

Results

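The 47 genes described here encode the enzymes that add methyl groups to lysines and arginines of histones, the core partners of those enzymes, and the lysine demethylases that take the groups off again. They were chosen by name from the table of embryo gene counts, with no measured value entering the choice, and all 47 were found among its 20092 genes. Each also passed the filter on low counts, at least 15 counts in more than 3 pools, that left 16488 genes for testing. The methyltransferases draw their methyl groups from S-adenosylmethionine, which is made from methionine, whereas the demethylases use flavin, or iron and 2-oxoglutarate, and release the methyl group oxidized. In the blastocyst, the stage at which the outer trophectoderm and the inner cell mass have separated, these enzymes set the marks that keep genes of the other lineage silent or ready for use.

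RNA was sequenced from 12 pools of 5 sheep blastocysts, flushed 8 days after Polypay rams had been put with superovulated ewes. The 6 control pools were sired by rams on a basal diet (Ram410, Ram423 and Ram444, 2 pools each), and the 6 methionine pools by rams that had received this diet plus rumen-protected methionine, added on top at 1.5 g or 0.22%, 4 of them by Ram424 and 1 each by Ram498 and Ram511. The rams were fed for 77 days as prepubertal animals, from a mean age of 88 days, and the breeding came after the feeding had ended. Pools were formed by sire and dam, so that a sire and the ewe it was mated with cannot be told apart in these pools, and the tests over pools treat pools of the same sire as independent.

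The pools held between 1017847 and 2398589 counts each. In each pool 18934 to 19575 of the 20092 genes had counts, so that passing the filter does not by itself show expression. Values below are CPM, counts scaled to a library of 1000000 after TMM normalization (trimmed mean of M-values) in edgeR, and as no transcript lengths were used, levels are compared between pools for a gene and not between genes. The label names inner cell mass and trophectoderm, and in 10 of the pools most of their markers were found. There, the trophectoderm keratin KRT8 was at 3893 to 11862 CPM and the pluripotency factor POU5F1 at 132 to 521 CPM, but NANOG, another pluripotency factor, was at 5.1 to 16.3 CPM and UTF1 at 0 to 5 counts in any pool. The hypoblast factor SOX17 was at 0 to 8 counts in all 12 pools, but the other hypoblast markers measured were found. In the 10 pools GATA6 was at 249 to 801 CPM and FN1 at 238 to 466 CPM. PDGFRA was at 96.3 to 155 CPM there and GATA4 at 18.2 to 44.3 CPM. Control pool Embryo444_2 and methionine pool Embryo511_1 stood apart. Their median Spearman correlations with the other pools were 0.582 and 0.600 against 0.820 to 0.857, KRT8 was at 116 and 42.6 CPM, and POU5F1 at 14.2 and 39.7 CPM. Not all markers were low there, as NANOG was within the range of the 10 pools in both, and EOMES (96.3 CPM) and DPPA4 (44.6 CPM) were above it in Embryo444_2. The summed CPM of the 8 trophectoderm markers measured was 320.0 and 213 in this pair against 5280.2 to 14387 in the rest, that of 4 oocyte markers 92.7 and 719 against 90.7 to 149, of 4 sperm and testis markers 52.4 and 1078 against 18.6 to 107, of 2 blood markers 128 and 265 against 49.8 to 93.3 (from PTPRC, with CD74 within the range of the 10 pools), and of 5 uterine epithelial markers 196 and 134 against 88.9 to 140.3. Among single genes, the oocyte coat gene ZP3 was at 410.4 CPM and the spermatid gene TNP1 at 1008 CPM in Embryo511_1. The other sperm and testis markers were not high there. AKAP4 (53.5 CPM) and ODF1 (3.97 CPM) were within the range of the 10 pools, and TSSK6 (11.9 CPM) was slightly above it. The part of these differences in the results was not tested, and the diet comparison is given with and without the pair.

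The summed CPM of the 47 genes was 4594 to 5366 CPM in control pools (median 4876) and 4895 to 6174 CPM in methionine pools (median 5149). It was 4594 CPM in Embryo444_2 and 5003 CPM in Embryo511_1, the pools in which the summed CPM of the trophectoderm markers was lowest. Single genes varied more, with coefficients of variation over the 12 pools of 14.2% (NSD1) to 71.5% (SETD1B) and a median of 30.0%, beside a median of 42.2% over all genes tested. Without the pair that stood apart the medians were 23.6% and 33.6%, and 41 of the 47 genes varied less than with it. By mean CPM, which also carries the length of a transcript, KMT2C (336 CPM), KDM5B (298 CPM) and KMT2D (251 CPM) gave the most counts and CARM1 (24.2 CPM), PRMT6 (21.9 CPM) and KMT5C (12.4 CPM) the fewest. KMT5C was at 2 counts in Embryo511_1 and at most at 38 counts in any pool, so that its values rest on few reads.

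**Figure D1:**
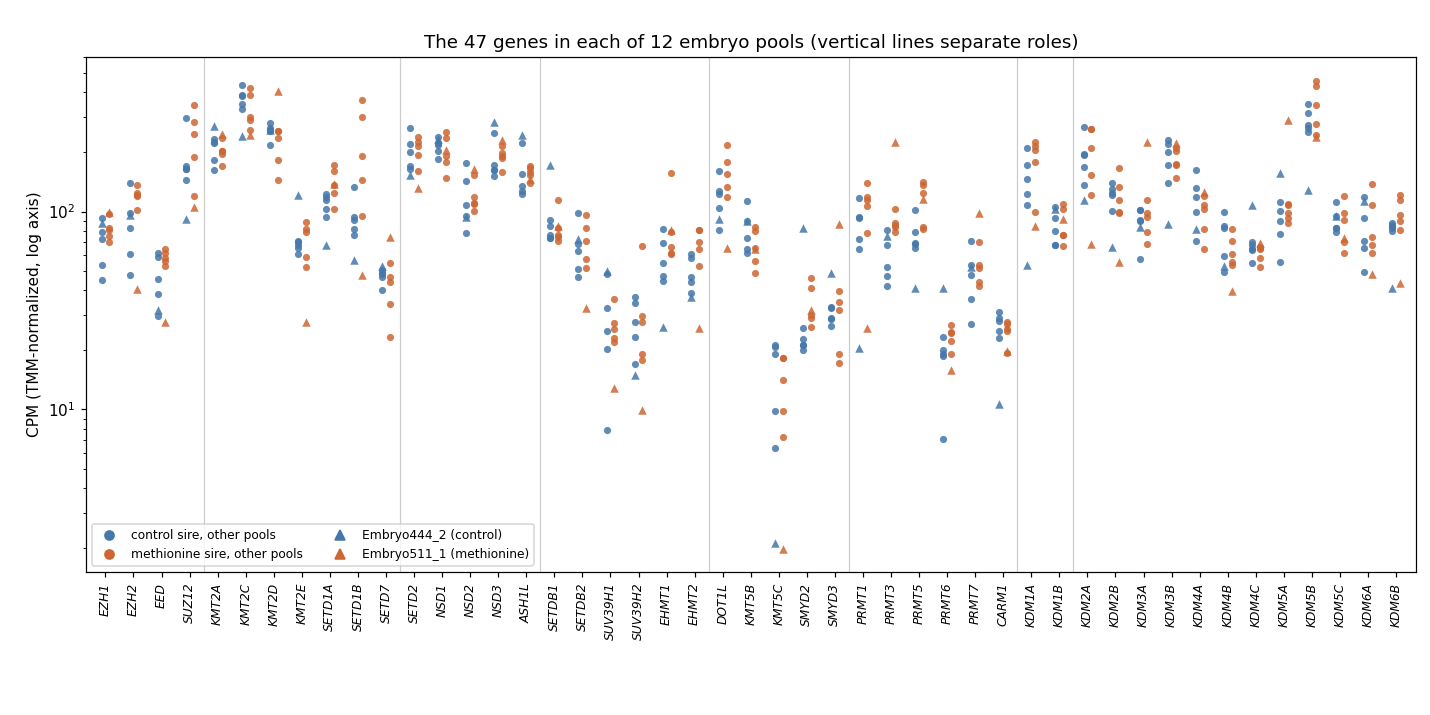
CPM of each of the 47 genes (horizontal axis, ordered by role) in each of 12 embryo pools (vertical log axis), with control pools in blue on the left, methionine pools in orange on the right, and the pools Embryo444_2 and Embryo511_1 as triangles. The blue and orange points overlap for every gene, and many of the outlying points are triangles, such as PRMT1 at 20.5 and 25.8 CPM.

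To find whether the diet of the sire was accompanied by a difference in these transcripts, the 6 control and 6 methionine pools were compared by edgeR's quasi-likelihood test over all 16488 genes, two-sided, with Benjamini-Hochberg adjustment. None of the 47 genes had an FDR under 0.05, nor had any gene tested (0%), and the smallest FDR among the 47 was 0.584. At an unadjusted p under 0.05 there were 3 of 47 (6.38%), fewer in share than the 7.92% of all genes tested. All 3, the arginine methyltransferases PRMT3 and PRMT5 and the H3K4 methyltransferase SETD1B, had higher means in methionine pools, where 3.55% of all genes met the same limit in that direction. The log2 differences (methionine minus control) were positive for 26 genes and negative for 21, with a median of 0.05 beside 0.01 over all genes. Pools of the diets overlapped for each of the 47 genes, and 0.352% of all genes were without overlap. The 95% intervals included 0 for 44 genes and lay between -1 and 1 for 36, with standard errors of 0.21 to 0.53 (median 0.28). DESeq2, run as an alternative, also gave 0 of the 47 with an FDR under 0.05, beside 16 of all genes, and 5 with an unadjusted p under 0.05, which 8.67% of all genes had. The likelihood-ratio test of edgeR, the kind of test the study used, gave 0 of the 47 with an FDR under 0.05, beside 5 of all genes. With it, 3 of the 47 had an unadjusted p under 0.05, which 8.82% of all genes had. Intervals and SE of log2 fold changes are those of edgeR's quasi-likelihood fit. Here and below, fewer cells of a type in a pool and less RNA in each cell cannot be told apart.

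When Embryo444_2 and Embryo511_1 were left out, 16161 genes were tested. Again 0 of the 47 had an FDR under 0.05, beside 1 gene of all (0.00619%), and 5 of the 47 had an unadjusted p under 0.05, which 11.9% of all genes had. To SETD1B (1.19), PRMT3 (0.58) and PRMT5 (0.54) were added the lysine methyltransferases SMYD2 (0.63) and EHMT2 (0.48), each with the log2 difference in parentheses. The smallest FDR of the 47 was then 0.240, that of SETD1B. The differences of 10 of the 47 genes turned in sign without the pair. KMT2E (0.09), SETD2 (0.0049), NSD3 (0.08), ASH1L (0.04), SETDB1 (0.06), SETDB2 (0.12) and KDM6A (0.17) turned from negative to positive. NSD2 (-0.03), SMYD3 (-0.08) and KDM3B (-0.09) turned from positive to negative. A further 11 kept their sign and moved by more than 0.15 on the log2 scale. These were PRMT3 and SMYD2 above, and EZH2 (0.48), KMT2D (-0.26), SETD7 (-0.22), SUV39H1 (-0.01), PRMT6 (0.40), PRMT7 (0.14), KDM3A (0.03), KDM4A (-0.30) and KDM5A (0.18), again with the value without the pair.

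**Figure D2:**
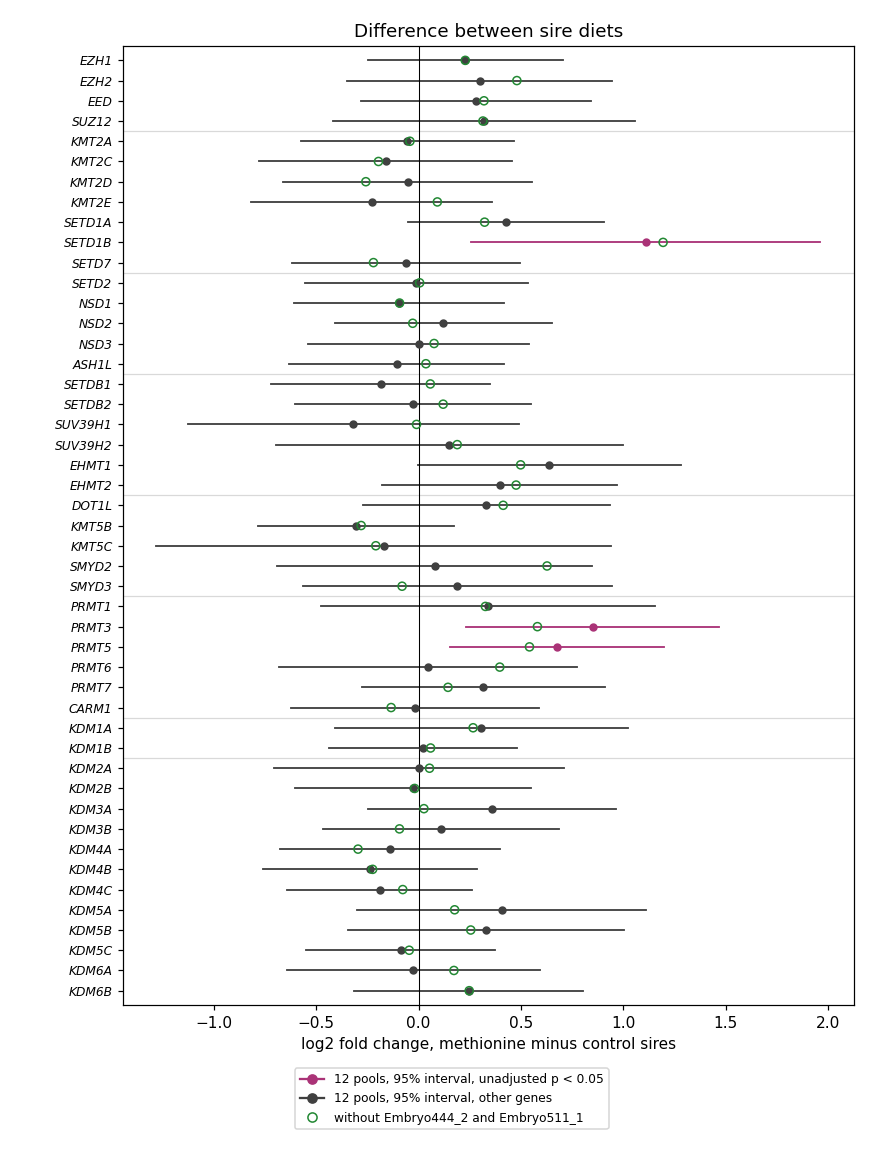
Log2 fold change of each gene between methionine and control pools (horizontal axis), with filled points and bars for the estimate and 95% interval over 12 pools and open green circles for the estimate without Embryo444_2 and Embryo511_1. The intervals of SETD1B, PRMT3 and PRMT5 (purple) lie above 0, and those of the other 44 genes include 0.

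SETD1B, a catalytic subunit of a complex that methylates H3K4, had the largest difference of the 47 genes. Control pools had 81.3 and 93.5 CPM (Ram410), 133 and 75.7 CPM (Ram423) and 90.8 and 56.6 CPM (Ram444). In methionine pools it was at 367, 301, 189.9 and 144 CPM in the 4 pools of Ram424, and at 95.1 CPM (Ram498) and 47.6 CPM (Ram511). The high values thus belonged to the pools of Ram424, and the pools of the other methionine rams lay within or below the control range. The mean was 191 ± 122 CPM (SD, n = 6) against 88.5 ± 25.4 CPM (SD, n = 6), and the log2 fold change 1.11 ± 0.40 (SE), with an unadjusted p of 0.014 and an FDR of 0.585 by edgeR. Without Ram424 it was -0.30. With the ram as the unit the exact two-sided permutation p was 0.8 (20 assignments, smallest possible 0.1), and over pools it was 0.106 (924 assignments). Its paralogue SETD1A, the catalytic subunit of a like complex, had 68.0 to 123 CPM (median 108) in control pools and 103 to 172 CPM (median 137) in methionine pools, for a log2 fold change of 0.43 ± 0.23 (SE), with an unadjusted p of 0.078 in edgeR.

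Among the 6 arginine methyltransferases, 5 had positive log2 differences and the median was 0.33. Of 5 other arginine methyltransferases and partners outside the 47, 2 had positive differences and the median was -0.03, with PRMT2 at -0.63. PRMT3, which methylates ribosomal protein S2 in the cytoplasm, was at 67.7, 47.5, 42.1, 80.8, 52.5 and 75.0 CPM in the control pools in the order Ram410, Ram423 and Ram444. Its values were 78.4, 85.5, 83.3 and 88 CPM with Ram424, 103 CPM with Ram498 and 224 CPM with Ram511. All 6 methionine pools lay above the control median, and a single control pool (80.8 CPM) reached into their range. The log2 fold change was 0.85 ± 0.29 (SE), with an unadjusted p of 0.010 and an FDR of 0.584 in edgeR, and the exact permutation p over pools was 0.0043. PRMT3 was the 1 gene of the 47 whose means per ram were all higher with methionine (83.8, 103 and 224 CPM) than with the control diet (57.6, 61.5 and 63.8 CPM). Over all genes, 7.65% had ram means that were separated in either direction, and the exact p over rams is then 0.1, the smallest possible. The highest value was that of Embryo511_1, and without that pool and Embryo444_2 the difference was 0.58 ± 0.22 (SE).

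PRMT5, the main enzyme of symmetric arginine dimethylation, was at 65.5, 68.7, 102, 69.3, 78.8 and 41.1 CPM in the control pools in the same order of rams. With Ram424 it was at 136, 141, 124 and 83.1 CPM, with Ram498 at 81.3 CPM and with Ram511 at 116 CPM. Here too all 6 methionine pools lay above the control median, while the highest control pool exceeded 2 of them. The log2 fold change was 0.68 ± 0.25 (SE), with an unadjusted p of 0.014 and an FDR of 0.585 in edgeR and an exact permutation p of 0.013 over pools, and without Ram424 it was 0.48 with an unadjusted p of 0.22. Its exact p over rams was 0.2. PRMT1, the main enzyme of asymmetric dimethylation, had 20.5 to 118 CPM (median 82.7) in control pools and 25.8 to 139 CPM (median 111) in methionine pools and a log2 fold change of 0.34 ± 0.39 (SE). Its lowest values were 20.5 CPM in Embryo444_2 and 25.8 CPM in Embryo511_1, against 64.7 to 139 CPM elsewhere. PRMT7, which monomethylates arginines, differed by 0.32 ± 0.28 (SE), with 26.9 to 70.8 CPM (median 50.1) in control pools and 42.2 to 98.1 CPM (median 52.6) in methionine pools. The nuclear enzyme PRMT6 and the coactivator CARM1 gave few counts, with 7.08 to 41.1 and 10.6 to 31.2 CPM in control pools, and differed by 0.05 and -0.02 (SE 0.34 and 0.29). Without the pair that stood apart PRMT6 differed by 0.40.

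**Figure D3:**
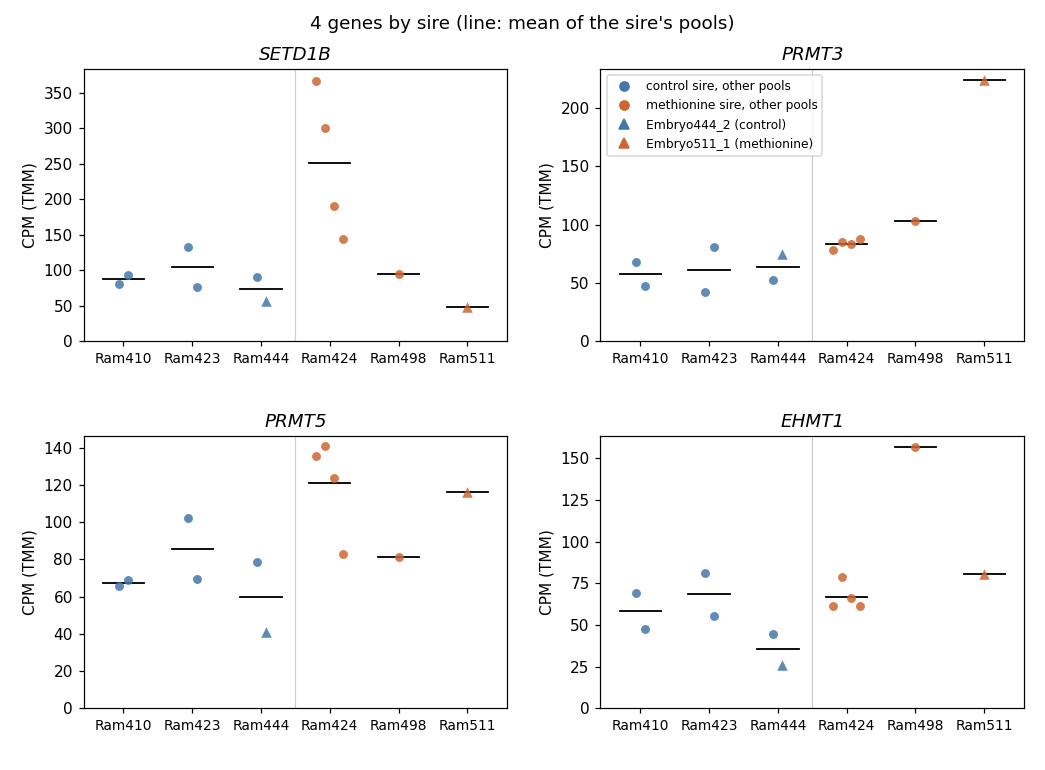
CPM of SETD1B, PRMT3, PRMT5 and EHMT1 (vertical axes from 0) in the pools of each sire, control rams on the left of the grey line and methionine rams on the right, with a black line at the mean of a sire's pools. SETD1B is high in the pools of Ram424 alone (250.4 CPM on average), PRMT3 is highest in the pool of Ram511, PRMT5 is higher in 3 pools of Ram424 and the pool of Ram511, and EHMT1 is highest in the pool of Ram498 (157 CPM).

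Polycomb repressive complex 2 (PRC2) places the repressive trimethyl mark on H3K27, with EZH2 or EZH1 as the catalytic subunit and EED and SUZ12 as the core on which its activity depends. All 4 genes had positive differences, of 0.23 to 0.32, none with an unadjusted p under 0.05. EZH2 had 47.9 to 139.8 CPM (median 89.2) in control pools and 40.6 to 136 CPM (median 120.5) in methionine pools, for a log2 fold change of 0.30 ± 0.31 (SE) and an unadjusted p of 0.346 in edgeR. The methionine pools other than Embryo511_1 had 102 to 136 CPM, and Embryo511_1 had the lowest value of all. EZH1, the form that prevails in cells that divide little, had 45.2 to 92.2 CPM (median 75.9) in control pools and 70.5 to 99.1 CPM (median 81.4) in methionine pools, with a log2 fold change of 0.23 ± 0.23 (SE). EED, which reads the mark and stimulates the enzyme, was at 29.7 to 61.4 CPM (median 41.9) in control pools and 27.8 to 64.5 CPM (median 57.4) in methionine pools, with 31.9 CPM in Embryo444_2 and the lowest value in Embryo511_1. SUZ12 was at 91.3 to 298 CPM (median 164) in control pools and 105 to 346 CPM (median 217) in methionine pools. Their log2 fold changes were 0.28 ± 0.27 (SE) and 0.32 ± 0.35 (SE). The 2 highest values of SUZ12 among methionine pools, 346 and 282 CPM, were those of Embryo424_2 and Embryo424_1, while control pool Embryo423_1 had 298 CPM. The pair that stood apart had 91.3 CPM in Embryo444_2 and 105 CPM in Embryo511_1, the lowest values of their diets.

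The enzymes of H3K4, a mark of promoters and enhancers, were otherwise close between the diets. KMT2C and KMT2D, which monomethylate enhancers, overlapped widely between the diets. KMT2C had 242 to 436 CPM (median 365) in control pools and 244 to 420.1 CPM (median 295) in methionine pools. KMT2D had 217 to 279 CPM (median 258) in control pools and 145 to 405 CPM (median 245) in methionine pools. Their differences were -0.16 ± 0.29 (SE) and -0.05 ± 0.29 (SE). KMT2A, the MLL1 protein that keeps homeotic genes active, varied least of the 47 after NSD1, with 162 to 272 CPM (median 224) in control pools and 169 to 248 CPM (median 202) in methionine pools and a difference of -0.05 ± 0.25 (SE). KMT2E, a relative with little or no enzyme activity, differed by -0.23 ± 0.28 (SE), and its extremes were both in the pair that stood apart, 121 CPM in Embryo444_2 and 27.8 CPM in Embryo511_1 against 52.6 to 88.4 CPM in the other pools. Without the pair its difference turned to 0.09. SETD7, a monomethyltransferase that also acts on proteins other than histones, had 40.0 to 53.1 CPM (median 48.6) in control pools and 23.2 to 74.4 CPM (median 45.3) in methionine pools and a difference of -0.06 ± 0.26 (SE).

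Transcripts of the H3K36 enzymes, which mark the bodies of transcribed genes, had the lowest median spread of the role groups (20.7% over the 12 pools). SETD2, the enzyme of H3K36 trimethylation, was at 152 to 264 CPM (median 186) in control pools and 131 to 238 CPM (median 204) in methionine pools. NSD1, NSD2 and NSD3, which dimethylate the same residue, differed by -0.10 ± 0.24 (SE), 0.12 ± 0.25 (SE) and -0.000467 ± 0.26 (SE). NSD1 ranged over 184 to 237 CPM in control pools and 148 to 253 CPM in methionine pools, NSD2 over 78.3 to 176 and 100.4 to 164 CPM, and NSD3 over 151 to 283 and 159 to 229 CPM. In each case the ranges of the diets overlapped widely. ASH1L, which opposes Polycomb silencing, had 123 to 244 CPM (median 145) in control pools and 139 to 171 CPM (median 156) in methionine pools and a difference of -0.11 ± 0.25 (SE), and that of SETD2 was -0.01 ± 0.26 (SE).

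The H3K9 enzymes, which build repressive chromatin, held 3 positive and 3 negative differences over the 12 pools, and 5 positive and 1 negative without the pair that stood apart. EHMT1 and EHMT2, which act as a pair in H3K9 dimethylation, differed by 0.64 ± 0.30 (SE) and 0.40 ± 0.27 (SE), with unadjusted p-values of 0.052 and 0.163 by edgeR. EHMT1, taken up here after its values were seen, was at 26.2 to 81.4 CPM (median 51.3) in control pools and 61.2 to 157 CPM (median 72.5) in methionine pools, and all 6 methionine pools lay above the control median. Its highest value, 157 CPM, was that of Embryo498_1, and its lowest, 26.2 CPM, that of Embryo444_2. EHMT2 had 36.8 to 61.0 CPM (median 45.3) in control pools and 25.8 to 80.4 CPM (median 67.4) in methionine pools, with its lowest value in Embryo511_1. SETDB1, which silences retroelements, was at 73.7 to 173 CPM (median 80.5) in control pools and 70.6 to 115 CPM (median 79.2) in methionine pools, a difference of -0.19 ± 0.25 (SE). Its value of 173 CPM in Embryo444_2 stood well above the 70.6 to 115 CPM of the 10 pools, and without the pair its difference was 0.06. SETDB2 differed by -0.03 ± 0.27 (SE), with 46.7 to 97.9 CPM (median 65.8) in control pools and 32.7 to 96.1 CPM (median 64.4) in methionine pools. The heterochromatin enzymes SUV39H1 and SUV39H2 gave few counts and varied widely. SUV39H1 had 7.86 to 50.3 CPM (median 28.8) in control pools and 12.9 to 36.2 CPM (median 24.2) in methionine pools. SUV39H2 had 14.9 to 37.1 CPM (median 25.5) in control pools and 9.91 to 66.8 CPM (median 23.4) in methionine pools. Their differences were -0.32 ± 0.38 (SE) and 0.15 ± 0.40 (SE), and Embryo498_1 held the highest SUV39H2 value. That of SUV39H1 was -0.01 without the pair.

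DOT1L, the H3K79 methyltransferase, had 80.7 to 159.7 CPM (median 113) in control pools and 65.4 to 216 CPM (median 143) in methionine pools and a difference of 0.33 ± 0.28 (SE). KMT5B and KMT5C place di- and trimethyl marks on H4K20. The former was at 61.7 to 113 CPM (median 81.6) in control pools and 48.7 to 83.8 CPM (median 65.0) in methionine pools, for a difference of -0.31 ± 0.23 (SE) with an unadjusted p of 0.194 by edgeR, and 1 methionine pool of 6 lay above the control median. The latter differed by -0.17 ± 0.53 (SE) at 2.12 to 21.2 CPM in control pools and 1.98 to 18.2 CPM in methionine pools. SMYD2, whose targets include H3K36 and the p53 protein, had the difference that moved most when the pair that stood apart was left out. In 5 of 6 control pools it was at 19.9 to 25.7 CPM but Embryo444_2 had 82.8 CPM, while methionine pools had 26.1 to 46.4 CPM (median 30.9). Its log2 difference was 0.08 ± 0.36 (SE) with all pools and 0.63 ± 0.25 (SE, unadjusted p 0.025, FDR 0.357, edgeR) without the pair. SMYD3 had 26.3 to 48.8 CPM (median 30.8) in control pools and 17.2 to 86.3 CPM (median 33.5) in methionine pools and a difference of 0.19 ± 0.36 (SE), which turned to -0.08 without the pair.

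Of the 14 demethylases, 8 had positive and 6 negative differences, and none had an unadjusted p under 0.05 by edgeR with the pair that stood apart (7.92% of all genes) or without it (11.9%). KDM1A (LSD1), the flavin enzyme that removes mono- and dimethyl groups from H3K4, had 53.8 to 210.0 CPM (median 135) in control pools and 84.3 to 224 CPM (median 191) in methionine pools, a log2 fold change of 0.31 ± 0.34 (SE). It was at 53.8 CPM in Embryo444_2 and 84.3 CPM in Embryo511_1, below every other pool. KDM1B, its relative that is needed for imprinting in the oocyte, was at 67.4 to 106 CPM (median 85.9) in control pools and 67.1 to 109.6 CPM (median 83.8) in methionine pools and differed by 0.02 ± 0.22 (SE).

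KDM2A and KDM2B are JmjC demethylases of H3K36. KDM2A had 114 to 268 CPM (median 180.3) in control pools and 68.4 to 261 CPM (median 181) in methionine pools. KDM2B had 65.8 to 140.0 CPM (median 122) in control pools and 55.5 to 166 CPM (median 107) in methionine pools. Their differences were 0.000754 ± 0.33 (SE) and -0.03 ± 0.27 (SE), and for both the value of Embryo511_1 was the lowest of the 12. KDM3A and KDM3B remove mono- and dimethyl groups from H3K9. KDM3A was at 57.7 to 102 CPM (median 90.0) in control pools, and at 68.5 to 224 CPM (median 95.6) in methionine pools, where Embryo511_1 had the highest value. The difference was 0.36 ± 0.29 (SE) over all pools. Without the pair it was 0.03. KDM3B had 86.4 to 230.3 CPM (median 186) in control pools and 147 to 222 CPM (median 189) in methionine pools and a difference of 0.11 ± 0.27 (SE). KDM4A, KDM4B and KDM4C, demethylases of H3K9 and H3K36, all had slightly lower means with methionine, with differences of -0.14 ± 0.25 (SE), -0.24 ± 0.25 (SE) and -0.19 ± 0.21 (SE). KDM4A ranged from 71.2 to 161 CPM in control pools and 64.9 to 125 CPM in methionine pools, KDM4B from 49.4 to 99.3 and 39.7 to 81.9 CPM, and KDM4C from 54.9 to 108 and 52.7 to 69.4 CPM. KDM4C was the steadiest of the 47 in the 10 pools, at 52.7 to 70.1 CPM, a coefficient of variation of 9.18%.

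KDM5A, KDM5B and KDM5C remove di- and trimethyl groups from H3K4. KDM5B had 129 to 351 CPM (median 269) in control pools and 238 to 459 CPM (median 309.9) in methionine pools, a difference of 0.33 ± 0.32 (SE), and its highest values were 459 and 429.6 CPM in Embryo424_2 and Embryo424_1. KDM5A was at 291 CPM in Embryo511_1 and 156 CPM in Embryo444_2 but at 55.7 to 112 CPM in the 10 pools. Its difference was 0.40 ± 0.33 (SE) with these and 0.18 without. The X-linked KDM5C differed by -0.09 ± 0.22 (SE) at 78.9 to 111 CPM (median 88.9) in control pools and 61.4 to 119 CPM (median 81.8) in methionine pools. For KDM6A (UTX), X-linked as well, and KDM6B (JMJD3), which remove the H3K27 mark that PRC2 places, the differences were -0.03 ± 0.29 (SE) and 0.24 ± 0.27 (SE). KDM6A was at 49.6 to 118 CPM (median 81.7) in control pools and 48.6 to 138 CPM (median 71.2) in methionine pools and KDM6B at 41.1 to 87.8 CPM (median 83.1) in control pools and 43.6 to 121 CPM (median 93.0) in methionine pools. In the 10 pools KDM6B kept to 80.2 to 121 CPM, and it was at 41.1 CPM in Embryo444_2 and 43.6 CPM in Embryo511_1.

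The position of the pair that stood apart differed from gene to gene. Relative to the median of the 10 other pools, the 47 genes were at 0.132 to 3.20 times in Embryo444_2 (median 0.863) and at 0.123 to 3.05 times in Embryo511_1 (median 0.846). In both pools 13 of the 47 genes (27.7%) lay below all 10 others, namely KMT5C, PRMT1, KDM1A, SUV39H2, KDM2A, SETD1B, KDM2B, KDM6B, SUZ12, EHMT2, KDM5B, KMT2C and SETD2, and 3 (6.38%) lay above, KDM5A, SMYD3 and KMT2A. Over all genes tested, 12.9% lay below and 8.15% above in both pools. The pools were told apart by their correlations over all genes, these 47 included, so that the shares are a description with no test.

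**Figure D4:**
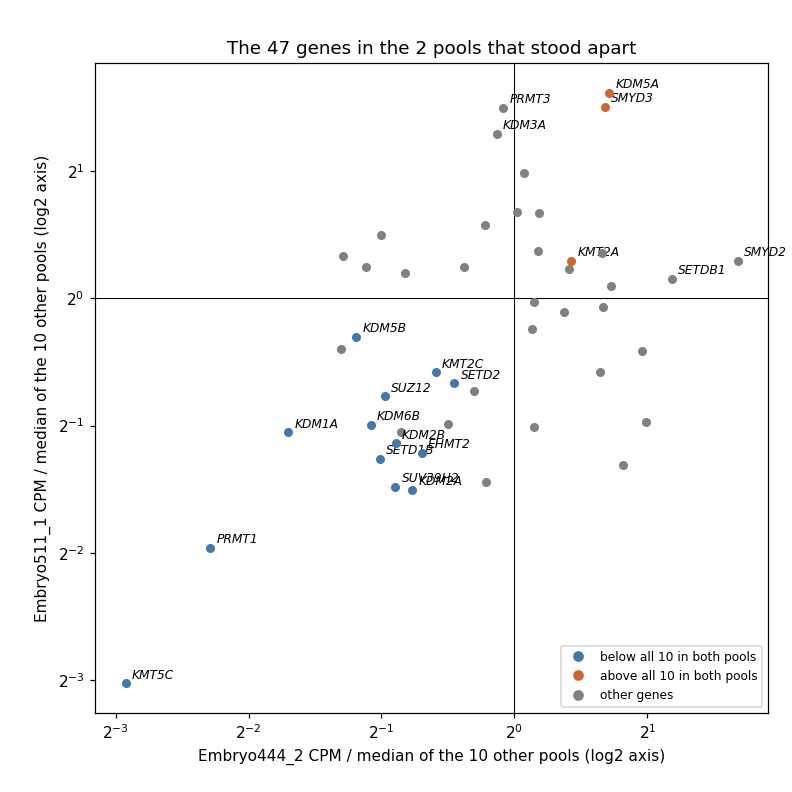
CPM of each of the 47 genes in Embryo444_2 (horizontal axis) and Embryo511_1 (vertical axis), each divided by the median of the 10 other pools, on log2 axes. KMT5C (few reads) and PRMT1 are farthest below 1 in both pools. KDM5A and SMYD3 are the farthest above 1 among the 3 genes that exceeded all 10 others in both.

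Because a ratio of 2 genes within a pool does not depend on how the library is scaled, 10 pairs of related enzymes were compared between the diets as log2 ratios of counts, with 0.5 added to each count. The exact two-sided permutation test over pools gave 0 of 10 pairs with a Benjamini-Hochberg adjusted p under 0.05, and 0 of 10 with an unadjusted p under 0.05. The smallest p was that of KDM5B over KDM5C, whose log2 ratio was 1.48 ± 0.60 (SD, n = 6) in control and 1.94 ± 0.21 (SD, n = 6) in methionine pools. The difference of 0.46 had an exact p of 0.087 (adjusted 0.866), and 2 methionine pools lay above the highest control pool. The log2 ratio of EZH1 to EZH2, the alternative catalytic subunits of PRC2, was -0.25 ± 0.58 (SD, n = 6) in control and -0.27 ± 0.77 (SD, n = 6) in methionine pools. It was 1.28 in Embryo511_1 and 0.60 in Embryo423_1 and below 0 in the other 10 pools. PRMT1 over PRMT5, asymmetric over symmetric dimethylation, stood at -0.01 ± 0.58 (SD, n = 6) in control and -0.36 ± 0.92 (SD, n = 6) in methionine pools, with the lowest values of -2.15 in Embryo511_1 and -0.99 in Embryo444_2. For KMT5B over KMT5C the pair that stood apart had the highest values, 5.19 and 4.71, against 1.63 to 4.08 in the rest. KMT5C was at 2.12 CPM in Embryo444_2 and 1.98 CPM in Embryo511_1, so that these values rest on few reads. The differences of the other 6 pairs were -0.27 (KDM6A over KDM6B) to 0.31 (EHMT1 over EHMT2), with exact p-values of 0.286 to 0.894. Without the pair that stood apart, again 0 of 10 pairs passed, though with fewer pools a single pair could not have passed after adjustment. The differences of 3 pairs then turned in sign, EHMT1 over EHMT2 to -0.05, SUV39H1 over SUV39H2 to 0.12 and KDM4A over KDM4C to -0.20. That of EZH1 over EZH2 moved from -0.02 to -0.31.

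**Figure D5:**
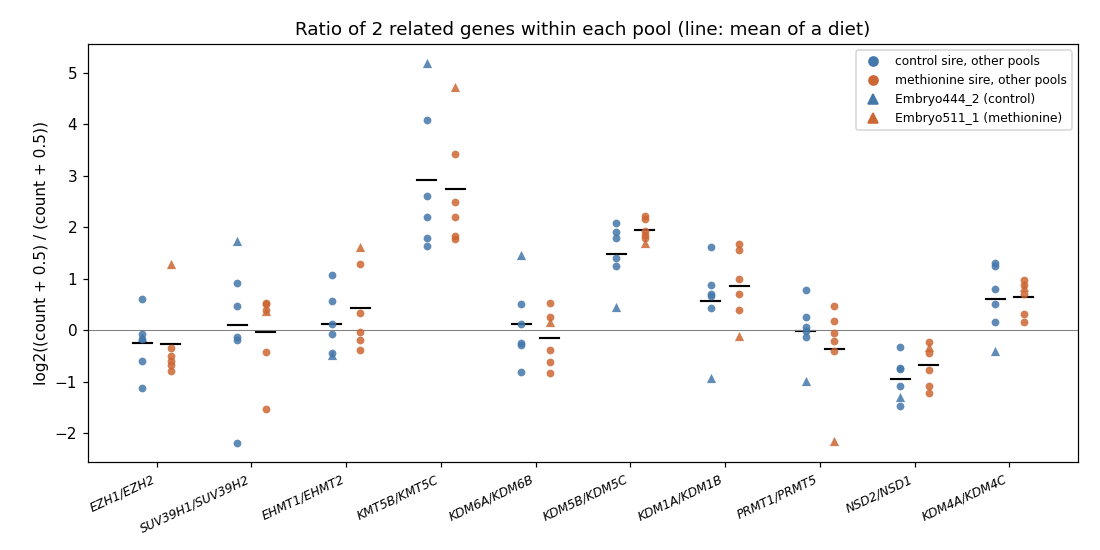
Log2 ratio of the counts of 2 related genes (vertical axis, 0.5 added to each count) in each pool for 10 pairs, control pools in blue on the left, methionine pools in orange on the right, and a black line at the mean of a diet. The diets overlap in every pair. The triangles of Embryo444_2 and Embryo511_1 hold the highest values of KMT5B over KMT5C (few KMT5C reads) and the lowest of PRMT1 over PRMT5.

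Whether the sire itself was a source of difference was asked within the control diet, where 3 rams had 2 pools each. By the quasi-likelihood F-test of edgeR, 0 of the 47 genes had an FDR under 0.05 (0% of all genes), 0 had an unadjusted p under 0.05 (4.69% of all genes), and DESeq2 gave 0 of the 47 on both counts, with 42 of all genes at an FDR under 0.05 and 5.31% at an unadjusted p under 0.05. Embryo444_2, which stood apart, is a pool of Ram444 (Spearman correlation with Embryo444_1 of 0.585). Its distance enters the spread within rams against which the sires were tested, so that smaller differences between sires could be missed. The smallest p was that of EZH1 (0.134), at 45.2 and 53.8 CPM with Ram410, 72.9 and 78.9 CPM with Ram423 and 92.2 and 87.1 CPM with Ram444. The pools of a ram lay close to each other and apart from those of the other rams for this gene, but the difference did not pass the test. Over the 10 pools of the 4 rams with more than 1 pool, in which Ram424 also differs in diet, 0 of the 47 had an FDR under 0.05 (0% of all genes) and 2, SETD1B and PRMT5, had an unadjusted p under 0.05, which 15.1% of all genes had. Embryo424_1 and Embryo424_2 were more alike than other pools of a ram, with a Spearman correlation of 0.955, and their counts differed by more than counting error (chi-square of 3.29 per gene, against 8.29 to 26.1 in other pairs of a ram). As reads were amplified, this does not tell 2 pools from repeated amplification of 1. They were kept as 2 samples, as labelled, and when they were summed into 1 the diet comparison gave 0 of the 47 with an FDR under 0.05 and 3 with an unadjusted p under 0.05, which 5.84% of all genes had.

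Other genes of the same machinery, partners and enzymes outside the 47, were looked up as a list of 60, of which 54 were tested. None had an FDR under 0.05 by edgeR, 3 (5.56%) had an unadjusted p under 0.05 beside 7.92% of all genes, and the median log2 difference was 0.14. The 3 were RBBP5, a core subunit of the H3K4 complexes, RBBP7, a histone chaperone of PRC2 and of deacetylase complexes, and KMT5A, the monomethyltransferase of H4K20. RBBP5 was at 51.2 to 80.2 CPM (median 71.2) in control pools and 71.8 to 139 CPM (median 109.9) in methionine pools, a log2 fold change of 0.67 ± 0.22 (SE). For RBBP7 the values were 24.1 to 113 CPM (median 41.1) in control pools and 15.9 to 252 CPM (median 83.4) in methionine pools, a difference of 1.14 ± 0.51 (SE), and for KMT5A 93.4 to 236 CPM (median 154) in control pools and 67.4 to 491 CPM (median 287) in methionine pools, a difference of 0.90 ± 0.42 (SE). Both had their highest values in Embryo424_1 and Embryo424_2, and the pool of Ram511 was below the control range. The exact permutation p over rams was 0.9 for both, and over pools 0.247 for RBBP7 and 0.175 for KMT5A. For RBBP5 the exact permutation p was 0.0087 over pools and 0.1 over rams, the smallest possible. Ram means were separated by diet for 7.65% of all genes. Without the pair that stood apart, 0 of the 54 had an FDR under 0.05 and 7 (13%) an unadjusted p under 0.05, beside 11.9% of all genes. The 4 added were PRMT2 (-0.68), an arginine methyltransferase, and PRDM1 (-0.73), a repressor of the PRDM family, both lower with methionine, and HCFC1 (0.61), a partner in H3K4 complexes, and the deacetylase HDAC2 (0.59), both higher. Over the 12 pools, an unadjusted p under 0.05 was found for 1 of 8 PRC2 partners, 1 of 11 partners of the H3K4 complexes, 1 of 17 other lysine methyltransferases, 0 of 5 other arginine methyltransferases and partners and 0 of 13 other demethylases and partners.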

How the data were processed

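RNA of 12 pools of 5 blastocysts was amplified as a whole transcriptome and sequenced. The authors trimmed the reads with Trimmomatic, aligned them to Oar_rambouillet_v1.0 with STAR and deposited raw read counts per gene; whether the counting used strand is not given in the sources used here. Pools were grouped by the diet in their labels. The filter kept a gene if more than 3 pools reached 15 counts. After TMM normalization, edgeR 4.0.16 (R 4.3.3) was used to fit quasi-likelihood models, two-sided, with Benjamini-Hochberg adjustment over all genes kept. The quasi-likelihood procedure was run on simulated counts with planted changes, in which pools were independent and none stood apart. That run checked the code and does not show how the test behaves with pools that share a ram. An SE is the log2 fold change divided by the square root of F. Exact permutation tests used log2(CPM + 1) or log2 ratios of counts. Reads carried no molecular identifier, so that counts of 1017847 to 2398589 per pool are not independent molecules, and p-values measure the spread between pools, some of which share a ram.

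Alternatives were the likelihood-ratio test, DESeq2 1.42.0, other normalization (RLE) and filters, sums of the pools of a ram, limma 3.58.1 with the ram as a random effect (consensus correlation 0.263), and rams or pools left out. Sums of Embryo424_1 and Embryo424_2, sums per ram without the pools that stood apart, and pairs of genes without these pools were added after the values were seen. The genes and lists were chosen with earlier results of these data known. All 47 genes are reported, with full statistics for those with an unadjusted p under 0.05, and other pathway genes are named where theirs was under 0.05. The planned comparison of sperm methylation at these genes was not made, since the cytosine table has positions of Oar_rambouillet_v1.0 and the gene table used here is of ARS-UI_Ramb_v3.0. Levels per transcript length were not computed, as no transcript lengths were available.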

Additional observations from a re-analysis of the deposited data

Results flagged for a closer look

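For each of the 47 genes and each diet, the highest and the lowest of the 6 pools were compared with the rest by Dixon's ratio, the gap to the nearest pool divided by the range, on log2(CPM + 1). Of 94 groups, 18 (19.1%) held a pool with a ratio over the critical value of the 95% level, which chance gives in about 1 of 20 groups. Of these, 9 were Embryo444_2, 6 Embryo511_1 and 3 other pools. Over all genes tested, 13.7% of the groups held such a value, and 77.3% of those values were in Embryo444_2 or Embryo511_1, against 83.3% for the 47.

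Embryo444_2 was the highest control pool for KMT2E (121 CPM against 60.7 to 71.2 CPM, ratio 0.770), SETDB1 (173 CPM against 73.7 to 90.5 CPM, ratio 0.760), SMYD2 (82.8 CPM against 19.9 to 25.7 CPM, ratio 0.822), SMYD3 (48.8 CPM against 26.3 to 32.9 CPM, ratio 0.643) and KDM4C (108 CPM against 54.9 to 70.1 CPM, ratio 0.638). It was the lowest control pool for PRMT1 (20.5 CPM against 64.7 to 118 CPM, ratio 0.654), CARM1 (10.6 CPM against 22.9 to 31.2 CPM, ratio 0.705), KDM5B (129 CPM against 252 to 351 CPM, ratio 0.670) and KDM6B (41.1 CPM against 80.2 to 87.8 CPM, ratio 0.880). Embryo511_1 was the lowest methionine pool for EZH2 (40.6 CPM against 102 to 136 CPM, ratio 0.760), EED (27.8 CPM against 52.9 to 64.5 CPM, ratio 0.764), EHMT2 (25.8 CPM against 52.9 to 80.4 CPM, ratio 0.630) and PRMT1 (25.8 CPM against 78.3 to 139 CPM, ratio 0.656), and the highest for PRMT3 (224 CPM against 78.4 to 103 CPM, ratio 0.741) and KDM5A (291 CPM against 88 to 109 CPM, ratio 0.822). In the other pools the values were those of SETDB1 (115 CPM against 70.6 to 84.3 CPM, ratio 0.636) in Embryo424_1, EHMT1 (157 CPM against 61.2 to 80.3 CPM, ratio 0.712) in Embryo498_1 and KDM3A (57.7 CPM against 83.5 to 102 CPM, ratio 0.644) in Embryo423_2.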

How the results depend on the processing

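In all 29 alternatives to the diet comparison 0 of the 47 genes had an FDR under 0.05. Of all genes, 5 did with the likelihood-ratio test of edgeR, 16 with DESeq2 and 1 without Embryo444_2 and Embryo511_1. Among the 47, the number with an unadjusted p under 0.05, 3 over the 12 pools, was 5 with DESeq2 (8.67% of all genes). It was 1 with pools summed per ram (3.47%), and 4 with such sums without the pair that stood apart (4.64%). With the ram as a random effect in limma it was 3 (2.15%). Without Embryo444_2 and Embryo511_1 it was 5 (11.9%), and with a ram or a pool left out 2 to 4 (5.73% to 11.8%). All of these genes were higher with methionine. PRMT3 kept an unadjusted p under 0.05 in all 29 (log2 fold changes over all 29 of 0.52 to 1.42), PRMT5 in 24 (0.41 to 0.83) and SETD1B in 25 (-0.30 to 1.31), reversed to -0.30 without Ram424. Ram498 and Ram511 each had a single pool, so leaving out the ram or its pool is the same fit. The 29 hold both entries, so these tallies count such fits more than once. The FDR in these alternatives was 0.230 to 1.0 for PRMT3, 0.347 to 1.0 for PRMT5 and 0.240 to 1.0 for SETD1B. The log2 fold changes of PRMT3 and PRMT5 were positive in each alternative. In the comparison of sires 0 of the 47 had an FDR under 0.05 in 10 alternatives, although 42 of all genes did with DESeq2, 774 without Embryo444_1 and 10 without Embryo444_2. Of the 47, those with an unadjusted p under 0.05 numbered 2 over 4 rams (15.1% of all genes) and 0 to 7 with a control pool left out. The 7 (14.9%, against 20.7% of all genes) were found without Embryo444_1, which leaves Embryo444_2 as the sole pool of Ram444 and assumes that it varies like the others. For the pairs of enzymes 0 passed in each of 15 alternatives. With means per ram none could have passed, as the smallest possible exact p was 0.1. Without the pair of pools that stood apart, a single pair of enzymes could not have passed after adjustment, as fewer assignments were left. The median coefficient of variation was 23.6% without the pair that stood apart against 30.0% with it. No paired analysis was possible because the pools of the diets share no number in the labels. Sperm methylation at these genes and levels per transcript length were not run.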
